A study of Mus musculus with 1989 samples.

Results

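Cd69, Cd5, Itm2a, Egr1, Nr4a1 and Egr2 are genes whose transcripts are known to rise when the T cell receptor (TCR) of a thymocyte is engaged. They were taken by name, and all 6 were among the 8846 genes of the scRNA-seq table, which held 1993 cells. In the scATAC-seq table, 142 of the 138317 peaks had the start of 1 of these genes as their nearest protein-coding start. Thymus cells of male C57BL/6 mice, an inbred strain, labelled 7 weeks old, gave 1 scRNA-seq library made in droplets. By scATAC-seq, a measure of open chromatin, 182 cells sorted as double negative (DN), 125 as double positive (DP), 119 as CD4 and 116 as CD8 were used together with 1084 cells labelled thymocytes without a sort, called unsorted here. No animal is named for a cell, and no genotype or treatment separates the cells. The library and each sort therefore count as 1 sample without replicates, and no test between stages or sorts was run. Intervals below are exact 95% intervals, and they cover counting error only.

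A developing αβ T cell first rearranges its TCR genes as a DP thymocyte, and its fate then follows from how strongly the receptor binds self peptide presented in the thymus. Weak binding rescues the cell (positive selection), whereas strong binding deletes it or diverts it to agonist-selected lineages. Receptor engagement runs through calcium and ERK signals to immediate early transcription factors. Egr1 and Egr2 are zinc finger factors of this kind, and Nr4a1 (Nur77) is an orphan nuclear receptor of the same early wave. Cd69 is a surface protein that holds back the exit receptor S1pr1. Cd5 is a surface inhibitor of TCR signals whose level is known to follow the strength of those signals. Itm2a is a membrane protein that marks positively selected thymocytes.

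The start regions of the genes are shown first, since they carry the sites at which such signals are known to act. Start regions of 4 of the 6 genes were taken from a RefSeq table (GRCm38.p6, 250 bases before to 50 bases after a start). The table held no entry for Cd69. Egr1 was left out of the search by choice, and both genes are named only. The sequences run 5′ to 3′ on the strand of the gene. Capitals mark a CArG box, the site of the serum response factor Srf, or the Egr family site GCGGGGGCG, read here on the other strand.
Egr2, chr10:67537316-67537615 (+): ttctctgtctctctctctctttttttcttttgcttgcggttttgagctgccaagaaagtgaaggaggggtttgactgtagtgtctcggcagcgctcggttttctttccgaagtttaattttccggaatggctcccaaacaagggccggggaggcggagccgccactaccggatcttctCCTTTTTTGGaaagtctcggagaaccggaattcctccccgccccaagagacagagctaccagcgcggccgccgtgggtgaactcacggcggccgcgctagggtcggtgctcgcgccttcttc
Egr2, chr10:67537619-67537918 (+): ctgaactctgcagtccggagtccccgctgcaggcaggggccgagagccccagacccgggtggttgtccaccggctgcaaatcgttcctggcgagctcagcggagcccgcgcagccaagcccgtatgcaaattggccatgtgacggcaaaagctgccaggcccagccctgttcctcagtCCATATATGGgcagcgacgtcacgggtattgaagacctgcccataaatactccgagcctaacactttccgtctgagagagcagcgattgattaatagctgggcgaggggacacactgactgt
Nr4a1, chr15:101266596-101266895 (+): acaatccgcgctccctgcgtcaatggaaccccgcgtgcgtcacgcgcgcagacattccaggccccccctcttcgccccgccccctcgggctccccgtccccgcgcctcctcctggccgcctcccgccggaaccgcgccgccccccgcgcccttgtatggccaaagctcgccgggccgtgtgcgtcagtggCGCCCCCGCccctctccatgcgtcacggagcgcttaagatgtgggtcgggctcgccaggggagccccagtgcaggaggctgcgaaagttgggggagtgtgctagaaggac
Cd5, chr19:10738925-10739224 (-): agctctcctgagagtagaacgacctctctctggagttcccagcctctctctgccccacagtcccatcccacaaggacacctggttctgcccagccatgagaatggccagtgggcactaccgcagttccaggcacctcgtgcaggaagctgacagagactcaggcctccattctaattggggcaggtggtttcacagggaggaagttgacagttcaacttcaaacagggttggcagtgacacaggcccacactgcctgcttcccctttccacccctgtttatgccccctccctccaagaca
Itm2a, chrX:107403311-107403610 (-): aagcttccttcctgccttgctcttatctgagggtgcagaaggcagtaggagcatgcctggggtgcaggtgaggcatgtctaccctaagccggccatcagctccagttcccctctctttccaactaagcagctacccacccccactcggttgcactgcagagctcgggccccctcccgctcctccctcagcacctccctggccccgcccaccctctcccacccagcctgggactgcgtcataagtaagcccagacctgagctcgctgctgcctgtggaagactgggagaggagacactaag

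The search covered both strands for the CArG box by its name, for GCGTGGGCG and GCGGGGGCG (Egr family), for TGACGTCA (cyclic AMP response element) and for TGACTCA (AP-1). The first of the printed Egr2 regions holds a CArG box from -72 to -63, with the start counted as 0, and the other one holds a CArG box of other letters at the same distance from its own start. The table holds further Egr2 start regions, and that at chr10:67535249-67535548 has none of the searched sites. A CArG box occurs in 1.63% of the 32851 start regions in the table. Nr4a1 holds GCGGGGGCG from -60 to -52, a site found in 2.91% of all start regions. GCGTGGGCG (0.612% of all start regions), TGACGTCA (1.79%) and TGACTCA (5.20%) were found in none of the printed regions. Cd5 and Itm2a are printed for contrast, as these letters did not occur in their windows at all. A match describes letters and is not a bound site.

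Cells were grouped into 16 clusters without the 6 genes, so that a cluster could differ in them without having been defined by them. The clusters were numbered along an order of cells rebuilt by population balance analysis, which runs toward 10 sinks, of which 7 fell in clusters 15 and 16, and did not put the DN-like cells first. Names come from other marker genes. Clusters 1 to 3 were DPbla-like (DP blasts), cluster 5 was ISP-like (immature single positive) and cluster 6 DN-like, while the proliferating cluster 4 was left unnamed because S-phase genes led it. Clusters 7, 8 and 10 were DPre-like (DP cells that rearrange their TCR), clusters 11 and 13 DPsel-like (DP cells under selection), cluster 14 TNFR-high-like, cluster 15 CD8sp-like and cluster 16 CD4sp-like. Cluster 9 (APC-like, 36 cells) and cluster 12 (NCL-like, 30 cells) were named by markers of other cell types. Whether they hold αβ T cells was not tested. The names are loose in places. Among the 10 leading genes by fold, clusters 7 and 13 had markers of other classes and none of their own. These were Ccnb2 in cluster 7 and Cd40lg and Id2 in cluster 13. In cluster 16 the CD8sp-like marker Klf2 stood beside S1pr1, which is listed for CD4sp-like and CD8sp-like cells alike. Results are therefore given by cluster number, and the pools used below (clusters 11 and 13 as DPsel-like, clusters 7, 8 and 10 as DPre-like) are sums of clusters that include 7 and 13, not clean classes. Median depth was 1190 to 1378.5 detected genes per cell in clusters 7, 8 and 10, 1182 in cluster 11 and 1250 in cluster 13, whereas it was 3417.5 in cluster 5.

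All 6 genes were detected in a higher share of cells in clusters 11 and 13 together than in clusters 7, 8 and 10 together. Detected means a value above 0. Pooled over clusters 11 and 13 (337 cells), Itm2a was detected in 70.9% of cells (65.8% to 75.7%), Cd5 in 51.3% (45.9% to 56.8%) and Cd69 in 26.7% (22.1% to 31.8%). The transcription factors were found in fewer of these cells, with Egr1 in 21.7% (17.4% to 26.4%), Nr4a1 in 12.8% (9.39% to 16.8%) and Egr2 in 9.20% (6.34% to 12.8%). In the DPre-like clusters 7, 8 and 10 (501 cells) the shares were 12.4% for Itm2a, 17.4% for Cd5, 3.99% each for Cd69 and Egr1, 2.20% for Nr4a1 and 0.399% for Egr2. For none of the 6 genes did the intervals of these pools overlap. Taken singly, clusters 7, 8 and 10 had Itm2a in 9.88% to 18.5% and Cd5 in 16.2% to 19.2% of cells. When each cell was thinned to 1300 steps of its values, Cd69 was found in 18.7% (14.7% to 23.3%) against 2.20% (1.10% to 3.89%) and Itm2a in 64.4% (59.0% to 69.5%) against 8.18% (5.94% to 10.9%) of cells. The APC-like cells are set beside these shares, although they give no clean floor for stray transcripts, since B cells and other antigen-presenting cells can themselves express Cd69, Egr1 and Nr4a1. There Cd69 was seen in 2, Cd5 in 3, Itm2a in 4, Egr1 in 4, Nr4a1 in 2 and Egr2 in 0 of 36 cells at a median of 1395.5 detected genes. The DPre-like shares of Cd69 (3.99%), Egr1 (3.99%) and Nr4a1 (2.20%) were below the APC-like shares of 5.56%, 11.1% and 5.56%, and whether they stand above stray transcripts was not tested. Those of Itm2a (12.4%) and Cd5 (17.4%) lay within the APC-like intervals (3.11% to 26.1% and 1.75% to 22.5%). So did the shares of Egr1 (21.7% in 3.11% to 26.1%), Nr4a1 (12.8% in 0.680% to 18.7%) and Egr2 (9.20% in 0% to 9.74%) in clusters 11 and 13 together, as 36 cells leave wide intervals. The share of Egr1 in clusters 15 and 16 and that of Nr4a1 in cluster 16, given below, did not exceed the APC-like shares either. Hbb-bs, a globin gene of red cells, was the leading gene of cluster 11 by fold, but it was found in 3.11% of its cells and in 5.12% of all cells.

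**Figure D1:**
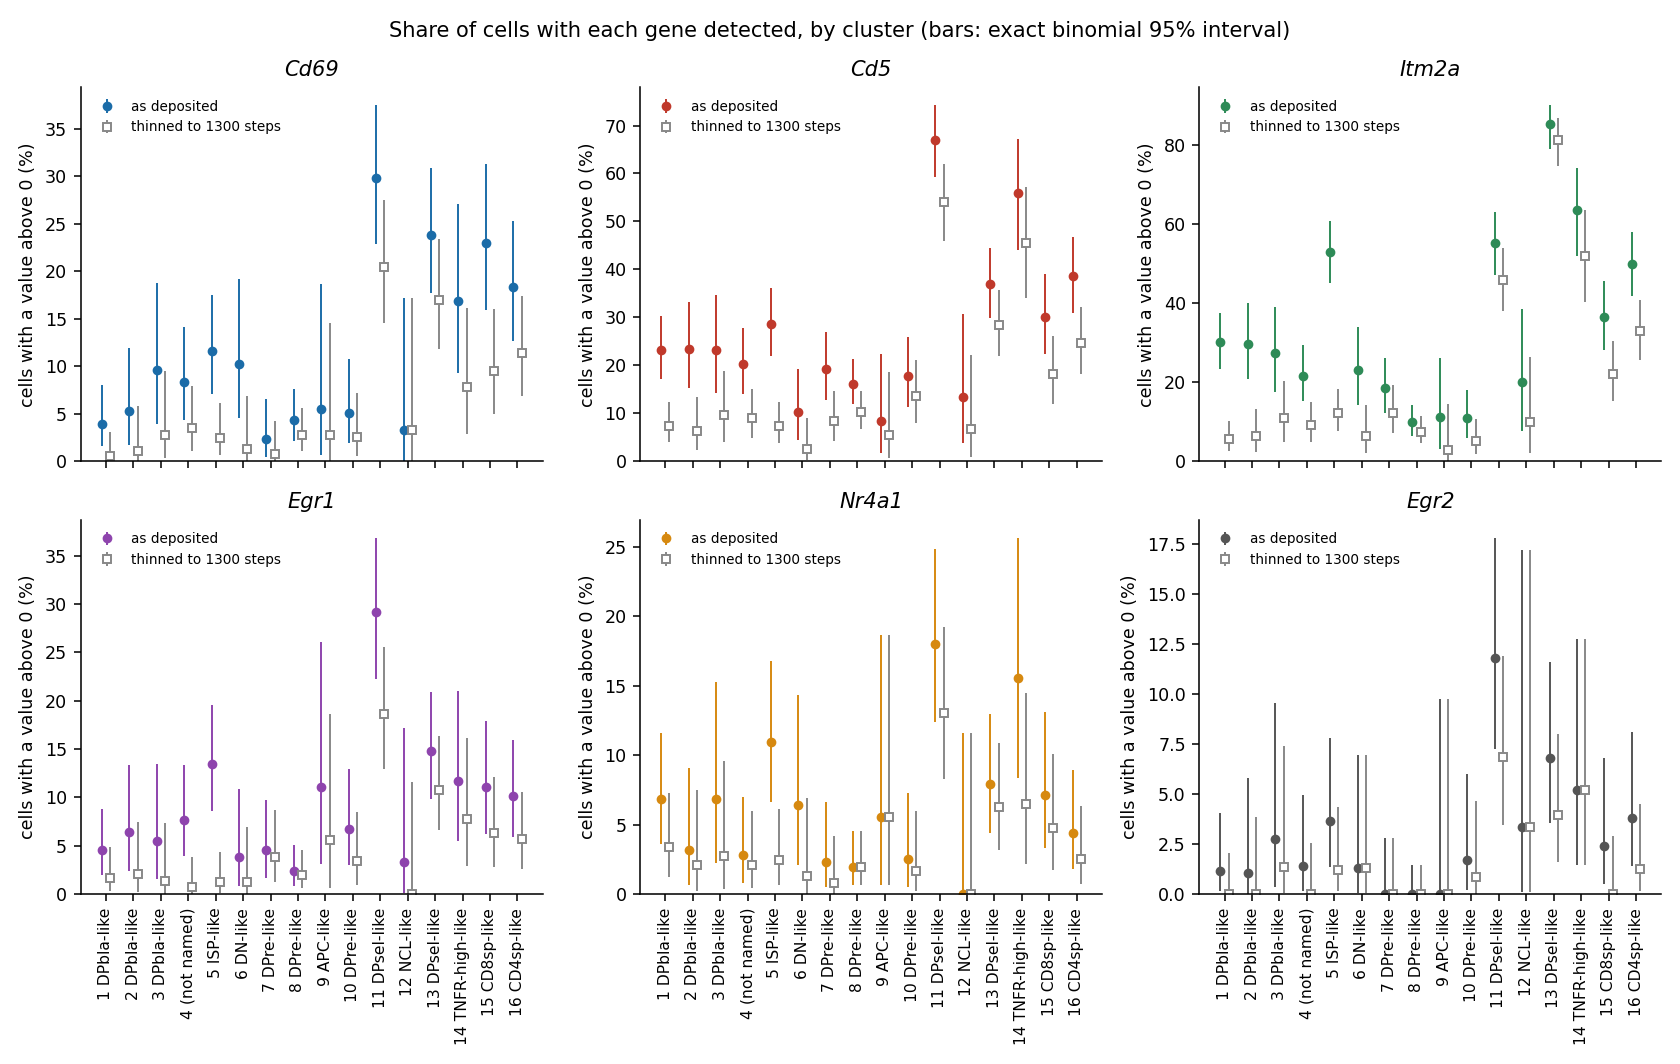
Share of cells with a value above 0 for each gene (y axis, percent) in the 16 clusters (x axis, numbered along the cell order). Filled points are the values as deposited, open squares the values after thinning to 1300 steps, and bars are exact binomial 95% intervals. Itm2a reached 85.2% in cluster 13, while each of the other 5 genes had its highest share in cluster 11.

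The mean values moved with the shares. On the log2 scale, the mean of Itm2a was 2.11 ± 1.80 (SD over cells) in the DPsel-like pool and 0.11 ± 0.31 in the DPre-like pool, a difference of 2.01 that 1 other gene of the table exceeded. Cd5 was at 0.84 ± 1.01 against 0.18 ± 0.48, and 21 genes had a larger difference than its 0.66. Cd69 was at 0.40 ± 0.87 against 0.04 ± 0.18, Egr1 at 0.30 ± 0.66 against 0.03 ± 0.19 and Nr4a1 at 0.18 ± 0.57 against 0.02 ± 0.18. Egr2 was at 0.09 ± 0.32 against 0.00 ± 0.03, which stayed under the size of 0.1 used here to call a gene higher or lower, and was just past it (0.10) when the members were kept in the clustering. Thus 5 of the 6 genes were past that size in the higher direction, where 5.15% of all genes were, and 0 were lower, where 5.77% of all genes were. In the DPsel-like pool the SD exceeded the mean for each gene except Itm2a.

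The clusters of selection differed in which of the genes they carried. Cluster 11 comes earlier in the order, and its leading genes included Cd28, Ikzf2 and Ccr9. Cluster 13 comes later and was led by Cd52, Cd2 and Bcl2 next to Itm2a. Cd5 was detected in 108 of 161 cells of cluster 11, or 67.1% (59.2% to 74.3%), and in 65 of 176 cells of cluster 13, or 36.9% (29.8% to 44.5%). Egr1 went from 29.2% (22.3% to 36.9%) in cluster 11 to 14.8% (9.88% to 20.9%) in cluster 13, and these intervals do not overlap either. After thinning those of Cd5 stayed apart, whereas Egr1 was at 18.6% (12.9% to 25.5%) and 10.8% (6.63% to 16.3%), and its intervals overlap. Nr4a1 was at 18.0% (12.4% to 24.8%) and 7.95% (4.42% to 13.0%), Egr2 at 11.8% (7.26% to 17.8%) and 6.82% (3.57% to 11.6%), and Cd69 at 29.8% (22.9% to 37.5%) and 23.9% (17.8% to 30.9%). For Nr4a1, Egr2 and Cd69 the intervals overlap. Itm2a went the other way, from 55.3% (47.3% to 63.1%) in cluster 11 to 85.2% (79.1% to 90.1%) in cluster 13. The mean log2 value of Itm2a was 1.52 lower in cluster 11 than in cluster 13, the difference of -1.52 being the lowest but 1 among all genes. Cd5 was 0.62 higher in cluster 11, Cd69 0.22, Egr1 0.21, Nr4a1 0.15 and Egr2 0.06. So 4 of the 6 genes were higher by 0.1 or more in cluster 11, as were 4.56% of all genes, and 1 was lower, as were 4.75% of all genes.

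Within detecting cells the levels of Cd5 were closer than the shares. Cells with Cd5 had a mean log2 value of 1.74 ± 0.80 in cluster 11 and 1.48 ± 0.80 in cluster 13. Egr1 was at 1.41 ± 0.74 and 1.38 ± 0.63, and Nr4a1 at 1.44 ± 0.88 and 1.39 ± 0.93 in the cells that had them. For Egr1 and Nr4a1 these levels differed by far less than the SD over cells. Itm2a was at 2.39 ± 1.33 and 3.33 ± 1.34, and Cd69 at 1.72 ± 1.24 and 1.23 ± 0.86. The highest value of Cd69 in any cell was 5.59, in cluster 11.

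In the TNFR-high-like cluster 14, the shares of 5 of the 6 genes had intervals that overlap those of cluster 11, and Egr1 was the exception, which did not hold after thinning (7.79%, 2.91% to 16.2%, in cluster 14 against 18.6%, 12.9% to 25.5%). In cluster 14 (77 cells), which carries TNF receptor family genes such as Tnfrsf4 and Tnfrsf9, Cd5 was detected in 55.8% (44.1% to 67.2%), Itm2a in 63.6% (51.9% to 74.3%) and Nr4a1 in 15.6% (8.32% to 25.6%) of cells. Egr1 was found in 11.7% (5.49% to 21.0%), Cd69 in 16.9% (9.31% to 27.1%) and Egr2 in 5.19% (1.43% to 12.8%). After thinning, Nr4a1 stood at 6.49% (2.14% to 14.5%) there, against 13.0% (8.26% to 19.2%) in cluster 11. Set against the CD4sp-like cluster 16, the mean log2 value was higher by 0.57 for Itm2a, 0.39 for Cd5 and 0.13 for Nr4a1, so that 3 of the 6 genes were past the size beside 5.47% of all genes, and 0 were lower beside 4.69%. Egr1 (0.02), Egr2 (0.02) and Cd69 (-0.03) differed by less.

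In the single positive clusters 15 and 16 together, the shares of Cd5 (34.9%), Itm2a (44.0%), Egr1 (10.6%), Nr4a1 (5.63%) and Egr2 (3.17%) had intervals below those of clusters 11 and 13 together. That of Cd69 (20.4%, 15.9% to 25.6%) overlapped. In the CD4sp-like cluster 16 (158 cells), Itm2a was found in 50.0% (42.0% to 58.0%), Cd5 in 38.6% (31.0% to 46.7%) and Cd69 in 18.4% (12.7% to 25.3%) of cells. In the CD8sp-like cluster 15 (126 cells), these shares were 36.5% (28.1% to 45.6%), 30.2% (22.3% to 39.0%) and 23.0% (16.0% to 31.4%). Egr1 was at 10.1% and 11.1% and Nr4a1 at 4.43% and 7.14% in clusters 16 and 15, while Egr2 was seen in 6 and 3 cells. The intervals of clusters 15 and 16 overlap for every one of the genes. Between clusters 11 and 13 on the one hand and clusters 15 and 16 on the other, the mean log2 value of Itm2a was 2.11 against 0.61, and no other gene had a larger difference. The difference was 0.48 for Cd5, 0.17 for Egr1, 0.15 for Cd69, 0.11 for Nr4a1 and 0.06 for Egr2. Here, too, 5 of the 6 were past the size, beside 3.15% of all genes, and 0 were lower beside 5.04%. This comparison shares the DPsel-like cells with the comparison to DPre-like cells.

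In the deeper clusters 1 to 6, the shares of Cd5, Itm2a and Egr1 given here were lower after thinning. The ISP-like cluster 5 had Itm2a in 53.0% of its 164 cells as deposited, but in 12.2% (7.61% to 18.2%) after thinning, and Egr1 fell likewise from 13.4% to 1.22%. In the DPbla-like clusters 1 to 3, Cd5 was seen in 23.3% to 23.4% of cells, and after thinning in 6.38% to 9.59%. The DN-like cluster 6 (78 cells) had Cd5 in 10.3% as deposited and 2.56% after thinning, and Itm2a in 23.1% and 6.41%. Egr2 was not detected in 130 cells of cluster 7 or in 253 cells of cluster 8, which allows shares of cells with a value of up to 2.31% and 1.19% (3 cells of the total, in place of an interval). Ranked by thinned share, cluster 11 led for Cd69, Cd5, Egr1, Nr4a1 and Egr2, and its interval overlapped that of the next cluster each time. Only the lead of cluster 13 for Itm2a, 81.2% (74.7% to 86.7%) against 51.9% (40.3% to 63.5%) in cluster 14, was wider than both intervals.

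Along the order, the rise was narrow, whereas Cd69 and Itm2a fell more slowly after it than Cd5. The 1927 cells outside clusters 9 and 12 were cut into 20 bins of 96 or 97 cells. Cd5 was detected in 17.7% of cells of bin 12, in 37.5% of bin 13 and in 68.8% of bin 14, its peak, and then dropped to 49.0% in bin 15 and 30.2% in bin 16. Cd69 went from 3.12% to 16.7% and 31.2% over bins 12 to 14, and Egr1 from 9.38% to 10.4% and 29.2%. Itm2a lagged by a bin, with 8.33%, 17.7% and 52.1% in bins 12 to 14 and 83.3% in bin 15. Nr4a1 was also highest in bin 15, at 16.7%, although bin 14 had 15.6%, and Egr2 was highest in bin 14, at 10.4%, but in bin 15 after thinning (6.25% against 4.17%) and by its mean. Cd69 was still at 28.1% in bin 17 and 20.8% in bin 19, and Itm2a at 71.9% and 52.1%. Egr1 and Nr4a1 stood at 16.7% and 13.5% in bin 17. In the last bin, Cd5 stood at 31.2%, Itm2a at 35.4%, Cd69 at 12.5%, Egr1 at 10.4%, Nr4a1 at 3.12% and Egr2 at 2.08%. Cd5 had a further high in bin 18, at 58.3%, where 33.3% of cells were TNFR-high-like. Median detected genes were 1269 in bin 12, 1183.5 in bin 14 and 1236 in bin 15, so that depth changed little over the rise.

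**Figure D2:**
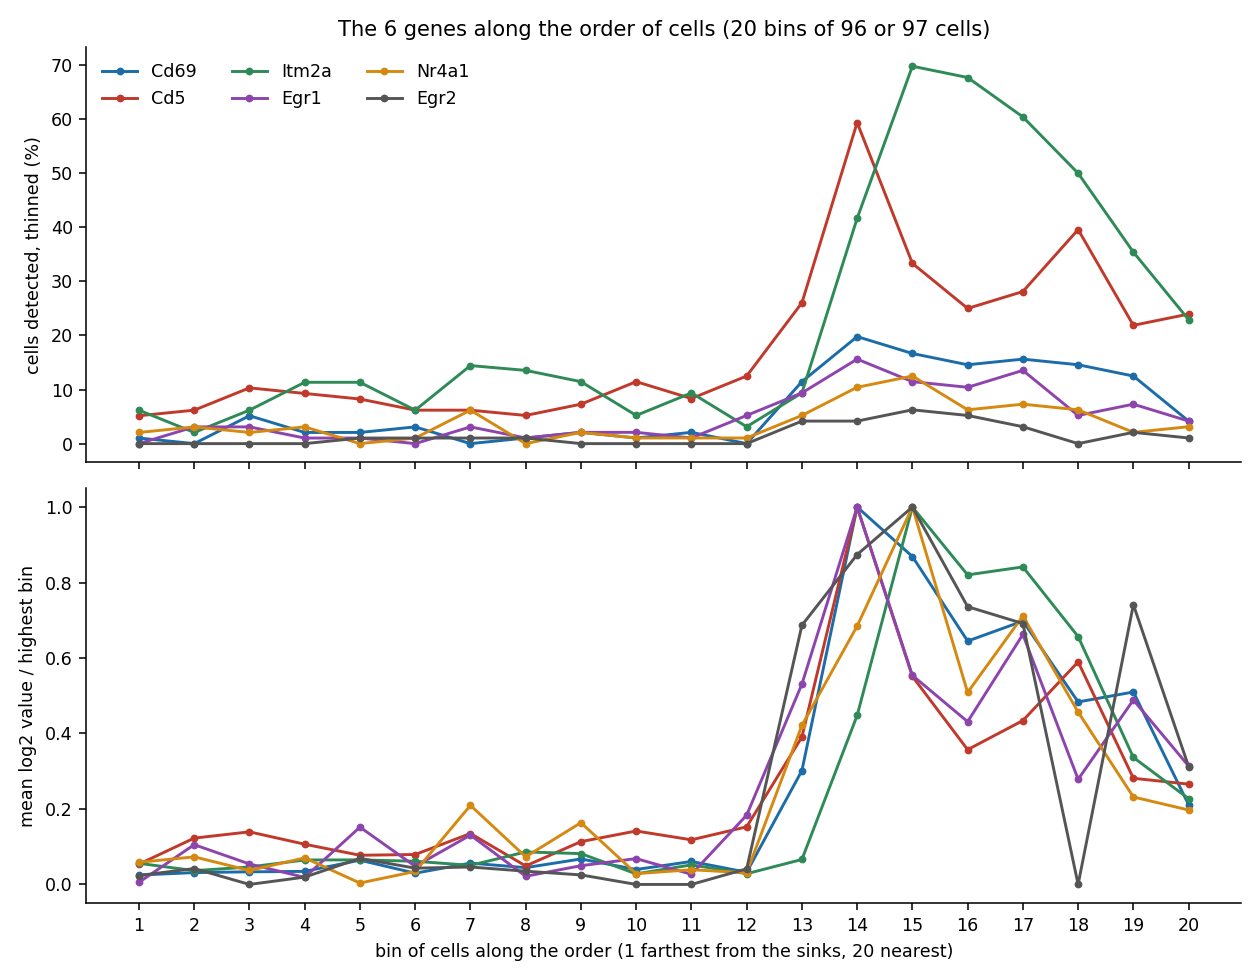
The 6 genes along the order of cells, in 20 bins from the cells farthest from the sinks (bin 1) to the nearest (bin 20). The upper panel gives the percent of cells with the gene after thinning, and the lower panel the mean log2 value divided by that of the highest bin. Cd69, Cd5 and Egr1 peak in bin 14 and Itm2a in bin 15.

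Most DPsel-like cells carried more than 1 of the genes. In cluster 11, 148 of 161 cells had at least 1 of the 6 genes, 103 had at least 2 and 23 had at least 4, with a mean of 2.11 genes per cell. In cluster 13 the mean was 1.76, in cluster 14 it was 1.69, in cluster 16 it was 1.25 and in cluster 15 it was 1.10. In the DPre-like clusters 7, 8 and 10 the mean was 0.403, and 334 of 501 cells had none. All 6 genes together were found in 3 cells of the library, of which 2 were in cluster 11 and 1 in cluster 14.

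Among pairs of the genes, those of Cd69, Egr1, Nr4a1 and Egr2 had the highest odds ratios of being found together when depth alone was allowed for. Depth alone makes detected genes coincide, so the odds of finding both were compared within 5 strata of detected genes (Mantel-Haenszel odds ratio, a description without a p). Over clusters 11 and 13, Egr1 and Egr2 were both found in 17 cells where 7.40 were expected, an odds ratio of 5.27. Of the 31 cells with Egr2, 54.8% had Egr1. Cd69 was seen with Egr2 in 18 cells (expected 9.68, odds ratio 3.72), with Nr4a1 in 22 (expected 12.5, odds ratio 3.08) and with Egr1 in 31 (expected 20.2, odds ratio 2.49). Egr1 and Nr4a1 coincided in 18 cells (expected 9.99, odds ratio 2.84), and Nr4a1 and Egr2 in 9 (expected 4.81, odds ratio 2.53). The 6 pairs of these 4 genes thus ranked first among the 15 pairs. With strata of depth and cluster, an alternative added after seeing the data, that ranking was lost, as Cd69 with Itm2a (2.70) and Itm2a with Nr4a1 (2.42) stood above Cd69 with Egr1 (2.37). Within cluster 13, Cd5 with Itm2a (5.39) stood above Egr1 with Egr2 (4.88) and below Cd69 with Egr2 (6.4). The same 6 pairs were also highest in clusters 15 and 16, where Egr1 and Egr2 coincided in 6 cells (expected 1.02) and Egr1 and Nr4a1 in 8 (expected 1.69). These counts are small. The leading pair in clusters 11 and 13 changed with the definition of detection, to Cd69 with Egr2 after thinning (8.22) and to Cd69 with Nr4a1 when only values above 1 counted (17.5), where Egr1 with Egr2 stood at 5.37 and 12.5.

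Cd5 and Itm2a had the lowest odds ratio of the 15 pairs over the pooled clusters. They were found together in 120 cells of clusters 11 and 13, where 123.4 were expected, an odds ratio of 0.82. Within cluster 13 alone the odds ratio of the pair was 5.39 (62 cells, expected 55.4). That value rests on the few of the 65 cells with Cd5 there that lacked Itm2a. Within cluster 11 the odds ratio was 0.82 (58 cells, expected 59.7), so that the pooled value mixes clusters that differ in both genes. With strata of depth and cluster the odds ratio was 1.39, near those of Cd5 with Egr2 (1.37), Cd5 with Nr4a1 (1.35), Cd69 with Cd5 (1.35) and Itm2a with Egr1 (1.33). Cd5 and Egr2 had an odds ratio of 1.54 as deposited, which went below 1 when cells were thinned (0.87) or when only values above 1 counted as detected (0.55). Cd69 with Cd5 went below 1 when cells were thinned (0.94), and Itm2a with Egr2 when only values above 1 counted (0.72). Over the 15 pairs, 13 were found together more often than expected, and the exceptions were Itm2a with Cd5 and Itm2a with Egr1 (51 cells, expected 51.8). Odds ratios of other gene pairs with like detection were not computed. Whether the count is particular to these genes was therefore not tested.

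**Figure D3:**
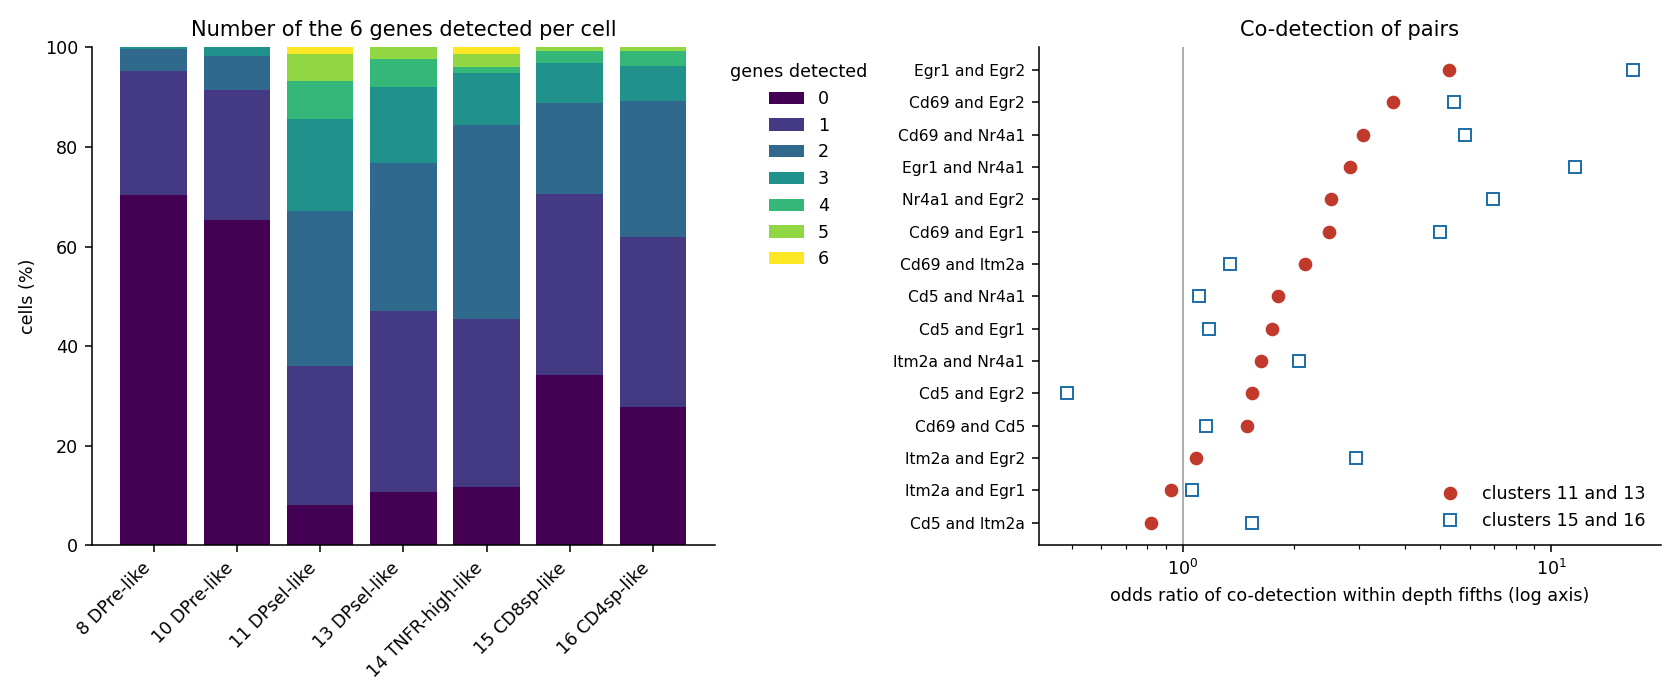
Left, percent of cells (y axis) with 0 to 6 of the genes detected in 7 clusters. Right, odds ratio of co-detection within depth strata (log x axis) for the 15 pairs in clusters 11 and 13 (filled) and in clusters 15 and 16 (open), with 1 marked by a line. With the values as deposited, Egr1 and Egr2 have the highest odds ratio in both groups of cells.

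Other genes of the pathway were examined by a list of 24 early response genes of TCR signaling, of which 21 were in the table. Between clusters 11 and 13 and clusters 7, 8 and 10, 4 of the 21 were higher by 0.1 or more, 2 were lower and 15 were within that size, with a median difference of 0.06 beside 0.00 over all 8846 genes. Of all genes, 5.15% were higher and 5.77% lower. Against the single positive clusters 15 and 16, 3 of the 21 were higher, 1 was lower and 17 were within the size. Of all genes, 3.15% were higher and 5.04% lower there. Against clusters 7, 8 and 10, Nab2, a corepressor that binds Egr proteins, was detected in 28.2% against 2.59% of cells, with a mean difference of 0.31. In the same comparison Dusp2, a phosphatase of MAP kinases, was higher by 0.36, Id3, an inhibitor of E proteins that is known to lie downstream of Egr factors, by 0.35 and Cd6, a surface relative of Cd5, by 0.26. Id3 was higher in its mean only, as 47.5% against 50.3% of cells had it. Nfkbia, an inhibitor of NF-κB, was lower by 0.16 (difference -0.16) and Slamf6, a surface receptor, by 0.22 (difference -0.22). Egr3, Nr4a2 and Nr4a3, the close relatives of the members, were detected in 1.48%, 0.890% and 0.593% of the DPsel-like cells and lay within the size. From cluster 13 to cluster 11, 8 of the 21 genes were higher and 0 lower, beside 4.56% and 4.75% of all genes, namely Nab2, Dusp2, Nfkbia, Nfatc1, Pdcd1, Id3, Cd6 and Slamf6. Id3 had the largest of these differences, 1.05, with 68.3% of cells against 28.4%. In cluster 14 against cluster 16, 6 were higher and 0 lower, beside 5.47% and 4.69% of all genes, and these were Nfkbia, Rel, Bcl2l11, Pdcd1, Cd6 and Slamf6. Thus Rel and Bcl2l11 were past the size in the TNFR-high-like cells and not in cluster 11 against cluster 13. The comparisons use different reference cells and were not tested against each other.

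The genes most like the members over the 16 clusters included other members and Nab2. Pearson correlations of cluster means are a description over 16 clusters of 1 library that share depth and composition. For Cd69 the closest of 8784 other genes was Nab2 (r = 0.97), followed by Egr1 (0.96), Tox (0.95), Egr2 (0.94) and Rgs10 (0.94). Egr1 and Egr2 were closest to the antisense transcript Gm43352 (r = 0.98 and 0.97), to Nab2 and to each other (0.97). Egr1 further had Cd69 and 4930417O13Rik among its 5 genes, and Egr2 had Gm15503, whose reads may be shared with Rgs10 since it lies within that gene on the same strand, and Tox. Nr4a1 was closest to 4930417O13Rik (0.94), Cd5 (0.92), Egr1 (0.92), Cd69 (0.91) and Gm43352 (0.90). Itm2a stood apart, with Chl1 (0.97), B630019A10Rik (0.93), Ckb (0.92), Tes (0.90) and Ubtd1 (0.89), each of which was detected in its highest share of cells in cluster 13. Its correlation with the other members was 0.65 to 0.74, whereas the other 5 correlated with each other at 0.90 to 0.97.

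Cd5 was closest to Egr2 (r = 0.93), 4930417O13Rik (0.93), Nr4a1 (0.92), the noncoding transcript A430093F15Rik (0.92) and Gm15503 (0.91). A430093F15Rik lies at chr19:10740947-10786043 on the plus strand (GRCm38), 1945 bases from the Cd5 gene (chr19:10717116-10739002, minus strand), and is transcribed away from it. It was detected in 27.3% (20.6% to 34.9%) of cells of cluster 11 and 28.6% (18.8% to 40.0%) of cluster 14. The shares were 16.5% (11.3% to 22.8%) in cluster 13 and 3.56% (1.64% to 6.65%) in cluster 8. The transcript bears on the chromatin data, because 7 of the 12 windows kept for Cd5 below have their centers inside it.

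Open chromatin at the 6 loci was read from counts in peaks. The table lists windows of 4000 bp, 61.6% of which overlap the next, so for each locus the windows with the most counts that did not overlap one another were kept, 39 of 142 in all. The median share of cells that neighboring windows had in common was 83.0% at a spacing of 200 to 260 bp, 30.9% at 1000 to 2000 bp and 12.9% at 2000 to 4000 bp. Counts therefore do not stand for the whole listed window. Totals were 1108749 counts in DN, 478264 in DP, 558091 in CD4, 494645 in CD8 and 6402950 in unsorted thymocytes. The sorts were checked at defining genes, and not all of them separated the sorts. Peaks of Cd8a, a subunit of CD8, had 2.15 counts per 10000 in DP and 0.609 in CD4 cells, those of the recombinase gene Rag1 had 0.962 and 0.0358, and those of Zbtb7b, the factor of the CD4 lineage, had 0.0836 and 0.448. Zbtb7b was at 0.303 in CD8 cells, whose interval overlaps that of CD4 cells (0.290 to 0.661), and Runx3, the factor of the CD8 lineage, was at 2.10 in CD8, 1.27 in CD4 and 2.21 in DN cells. Peaks of Cd4 did not separate the sorts, with 0.681 in CD4, 0.788 in CD8 and 0.732 in DP cells. Il2ra, a marker of DN cells, had 0.992 in DN cells and more in DP (1.51), CD4 (1.42) and CD8 cells (1.44), against its label.

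Cd5 and Itm2a had more counts per 10000 in single positive than in DP sorted cells. Their ratio of 1.5 or more was also reached by 19.8% of the genes compared below. At Cd5, counts per 10000 counts in peaks were 0.640 in DN, 0.878 (0.633 to 1.19) in DP, 1.61 in CD4, 1.29 (0.996 to 1.65) in CD8 and 1.14 (1.06 to 1.23) in unsorted cells, from 71, 42, 90, 64 and 730 counts. Pooled CD4 and CD8 cells had 1.46 (1.24 to 1.71). The ratio of pooled CD4 and CD8 cells to DP cells was 1.67 (1.18 to 2.40, exact conditional binomial interval). At Itm2a, counts were few, with 26 in DN, 6 in DP, 24 in CD4, 12 in CD8 and 45 in unsorted cells, and the ratio was 2.73 (1.14 to 7.91). When each cell was divided by its own total before averaging, that ratio fell to 1.32. The ratios at the other loci had intervals that included 1, with 1.35 (0.973 to 1.91) at Egr1, 1.18 (0.842 to 1.69) at Egr2, 1.10 (0.830 to 1.47) at Nr4a1 and 1.07 (0.825 to 1.39) at Cd69. Summed over all peaks of a gene, the ratio was 1.5 or more for 2 of the 6 loci (Cd5 and Itm2a), as for 19.8% of the 7966 protein-coding genes with at least 52 counts, and it was below 1/1.5 for 0 loci, as for 13.9%. The median over those genes was 1.03. By the same sums, 81.9% of those genes had a lower ratio than Cd5 and 96.5% a lower ratio than Itm2a.

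The labels number the sorted cells in several series, which were treated as batches. In the series with the lower numbers that holds both DP and single positive cells, the ratio of single positive to DP cells was 1.57 (1.03 to 2.46) at Cd5, 5.29 (1.36 to 45.4) at Itm2a on 2 DP counts, 1.44 (0.939 to 2.29) at Egr1, 1.25 (0.878 to 1.81) at Nr4a1, 1.10 (0.727 to 1.73) at Egr2 and 1.00 (0.735 to 1.38) at Cd69. In the series with the higher numbers, where 1 to 22 counts stand behind a value, it was 0.913 (0.330 to 2.90) at Cd5, 0.783 (0.364 to 1.79) at Egr1 and 0.676 (0.306 to 1.57) at Egr2. Itm2a had 1 count in either group there. Nr4a1 went the other way in that series, at 0.294 (0.109 to 0.759), and Cd69 was at 1.03 (0.437 to 2.68). The ratios of Cd5 and Itm2a were thus above 1 in the first of these series and not in the other. The first series held 160 of the 235 single positive cells and the other 75. Of the 125 DP cells they held 64 and 29. The ratios over all cells therefore include DP cells from outside these series, where no single positive cell was numbered.

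**Figure D4:**
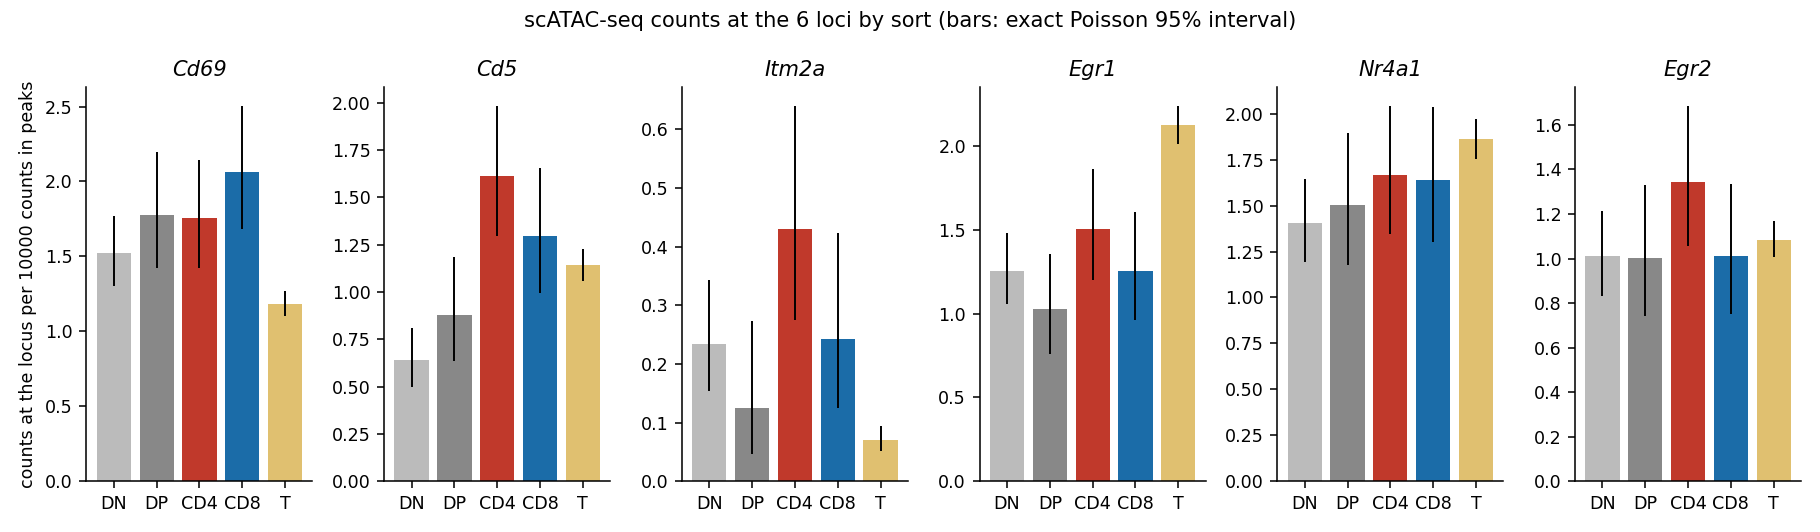
Counts at each locus per 10000 counts in peaks (y axis) in DN, DP, CD4 and CD8 sorted cells and in thymocytes not sorted (T). Bars are rates and lines are exact Poisson 95% intervals. Cd5 stands at 0.878 in DP and 1.61 in CD4 cells, while Egr1 is highest in T, at 2.12.

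Single peaks were compared where the DP and single positive cells together had at least 20 counts, which 19 of the 39 windows reached. Of these, 8 were higher by 1.5 times or more in the single positive cells and 1 was lower, where 27.2% and 22.6% of all 20143 such peaks were. The largest ratio was at a window 24.9 kb upstream of Cd5 (chr19:10761898-10765898, inside A430093F15Rik). It had counts in 19 of 119 CD4, 6 of 116 CD8, 15 of 182 DN, 1 of 125 DP and 11 of 1084 unsorted cells. In counts this was 28, 6, 15, 1 and 13, and the ratio of single positive to DP cells was 15.4 with an interval of 2.59 to 628 on the 1 DP count. The window at the Cd5 start itself had 10 counts in DP and 23 in single positive cells, a ratio of 1.04 (0.478 to 2.46). The higher ratio of the Cd5 locus was thus not seen at its start, on few counts.

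At Cd69, the window over the start (chr6:129273396-129277396) had 9 DP and 39 single positive counts, a ratio of 1.97 (0.938 to 4.62), and the window 46.1 kb downstream one of 2.88 (0.847 to 15.2). The window with the most DP counts lay 9.14 kb upstream of Cd69 (distance -9.14 kb), with 40 DP and 67 single positive counts and a ratio of 0.761 (0.507 to 1.16). At Nr4a1, whose gene model starts at 101254269 of chromosome 15, the window over the inner start printed above had 11 DP and 48 single positive counts, a ratio of 1.98 (1.02 to 4.23), and its center lay 32 bases from that start. The intronic window at 4.31 kb had 38 and 59 counts, a ratio of 0.705 (0.461 to 1.09). At Egr1 the window 3.47 kb upstream (distance -3.47 kb) had a ratio of 2.17 (1.04 to 5.06), while that with the most counts, over the gene, had 1.31 (0.820 to 2.15). The window over the Egr2 starts printed above had 28 DP and 72 single positive counts, a ratio of 1.17 (0.745 to 1.88). At Itm2a the window over the start had 2 DP and 16 single positive counts, and that 18.1 kb upstream (distance -18.1 kb) had 4 and 20, a ratio of 2.27 (0.761 to 9.14).

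**Figure D5:**
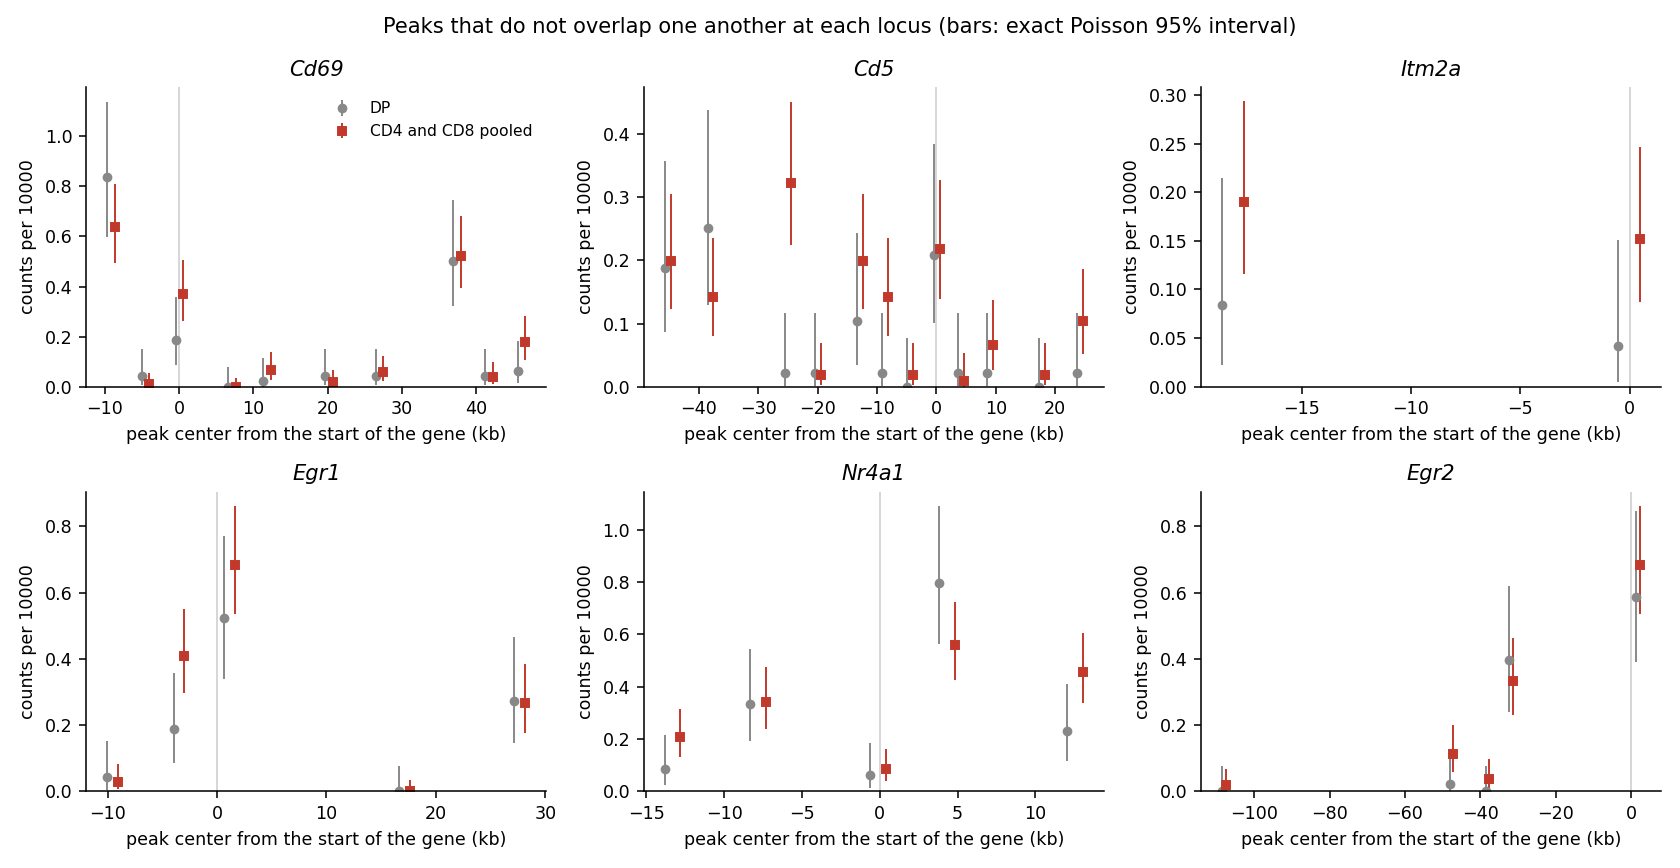
Counts per 10000 (y axis) in DP cells and in CD4 and CD8 cells pooled, for the windows that do not overlap one another at each locus, by the distance of their center from the start of the gene in kb (x axis, negative upstream). Lines are exact Poisson 95% intervals. At Cd5 the window at -24.9 kb has 1 DP count and 34 single positive counts.

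Thymocytes that were not sorted differed from the DP sort at some loci. Egr1 had 2.12 (2.01 to 2.24) counts per 10000 in unsorted cells and 1.02 (0.758 to 1.35) in DP cells, and its main window alone held 939 of 1358 counts of the unsorted cells. Cd69 went the other way, at 1.18 (1.10 to 1.27) against 1.78 (1.42 to 2.20). Labels number the unsorted cells in another way than the sorted ones, so that sort and batch cannot be told apart here.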

How the data were processed

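The RNA of thymus cells was counted in 1 droplet library. The authors aligned reads with Cell Ranger 1.3.1 (version per the submitters' processing notes), selected cells and genes and deposited log2 values after quantile normalization. For thinning only, each value was replaced by its place in the sorted set of values its cell takes (steps), a stand-in for a molecule count that understates high genes, and cells had 1356 to 22539 steps, so that none was left out at 1300. Clustering used Seurat 5.3.0 (R 4.3.3), with 1278 variable genes, 20 principal components, 30 neighbors, resolution 2, and with the members and 2 response lists left out. Clusters took the class of highest mean marker z score, and only clusters with Mki67 in at least 50% of cells could be ISP-like or DPbla-like. The order used 10 neighbors and 10 sinks, of which 7 fell in CD4sp-like or CD8sp-like cells. Doublets were not called.

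For scATAC-seq, the authors trimmed reads, mapped them with Bowtie2, removed duplicates and called peaks with MACS2 on merged cells. Their deposited table gives counts that are not normalized, for each peak in each cell. A GRCm38 build was assumed, since 22.5% of peak centers lay within 2 kb of a GENCODE vM21 protein-coding start, against 6.42% with starts moved by 100 kb. Median totals per cell ranged from 2571 (CD4) to 5792 (unsorted), and a locus with few counts has wide intervals. A total of 362 cell columns were not used, 352 of them thymocytes whose label lacks the middle number that the other unsorted cells carry and 10 of no stated group. Named genes were the 6 members, the 5 genes most like each (r of cluster means, among genes detected in at least 5% of cells of a cluster) and the list genes past the size of 0.1. Members and lists were chosen with earlier results of these data known. Statistics were tested on simulated data. Values were computed with Python 3.11.15 and scipy 1.17.1.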

Additional observations from a re-analysis of the deposited data

How the results depend on the processing

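No paired analysis was run, because the results come from no test and the labels pair no cell with a cell of another sort. Some label series hold cells of several sorts, and within-series ratios are given with the loci. The share of DPsel-like cells with each gene stayed within its interval when clusters were rebuilt with the members kept, at resolution 1, with 20 neighbors, with 30 principal components or with the deepest 5% of cells left out. Clusters 14 to 16 had no counterpart under some of these: at resolution 1 there were 0 CD4sp-like and 0 CD8sp-like cells (341 TNFR-high-like), and with 30 principal components 0 CD8sp-like cells (160 TNFR-high-like). The share moved with the definition of detection. With values above 1 the shares were 13.6% for Cd69, 36.5% for Cd5, 62.0% for Itm2a, 13.4% for Egr1, 5.64% for Nr4a1 and 2.97% for Egr2. After thinning they were 18.7% for Cd69, 40.7% for Cd5, 64.4% for Itm2a, 14.5% for Egr1 and 5.34% for Egr2, and Nr4a1 stayed within its interval. The mean log2 differences to DPre-like cells moved by less than 0.1 under each of these alternatives, but with the members kept in the clustering Egr2 reached 0.10, so that 6 and not 5 of the 6 genes were past the size of 0.1. Of the 13 odds ratios above 1, those of Cd5 with Egr2 (0.55) and Itm2a with Egr2 (0.72) turned below 1 with values above 1, and those of Cd5 with Egr2 (0.87) and Cd69 with Cd5 (0.94) after thinning. With strata of depth and cluster all 15 were above 1. Others rose, as Cd69 with Nr4a1 from 3.08 to 17.5 with values above 1 and Cd69 with Egr2 from 3.72 to 8.22 after thinning, which changed the leading pair.

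The ratio of single positive to DP cells changed with the cells and windows used. In the series of higher label numbers only, it was 0.91 at Cd5, 0.39 at Itm2a, 0.78 at Egr1, 0.29 at Nr4a1 and 0.68 at Egr2. With centers within 5 kb of the start, it was 1.65 at Cd69, 1.07 at Cd5 and 0.75 at Nr4a1. The cause was not tested. The other alternatives stayed within the intervals. Few counts limit the loci as well, with 6 DP counts at Itm2a.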

Other observations

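Immediate early genes that are also known to rise when tissue is dissociated were listed apart, 16 genes of which 11 were in the table. Between clusters 11 and 13 and clusters 7, 8 and 10, 2 were higher by 0.1 or more, 2 lower and 7 within that size, beside 5.15% higher and 5.77% lower among all genes. Junb was detected in 28.8% against 11.2% of cells (mean log2 difference 0.22) and Ier2 in 24.9% against 10.8% (0.21). Btg2, an antiproliferative gene, was found in 57.3% against 86.8% (difference -0.85) and Jund in 56.4% against 71.3% (difference -0.30). The summed mean of the 11 genes was 2.86 in clusters 11 and 13 and 3.48 in clusters 7, 8 and 10, with Btg2 and Jund lower and a median difference of 0.02, and 7 of the 11 were above 0. The sum of the 21 early response genes was 4.42 and 2.96. The part of dissociation in the levels of the members was not tested.

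The labels of the unsorted thymocytes carry a middle number of unstated meaning. Over the 36 groups of cells with the same number, counts per 10000 ranged from 0.528 to 1.89 at Cd69, from 0.598 to 2.06 at Cd5 and from 1.47 to 3.52 at Egr1, with medians of 1.17, 1.04 and 2.04. At Itm2a the range was 0 to 0.338.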
